A study of Homo sapiens with 11 samples.

Results

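The genes described here are the 6 anterior homeobox genes of the human HOXA cluster, HOXA2, HOXA3, HOXA4, HOXA5, HOXA6 and HOXA7, together with HOTAIRM1, the noncoding RNA gene at the same end of the cluster. They were taken by symbol from the table of raw counts and make up 7 of the 38557 annotated genes. All 7 had counts in all 11 libraries and passed the filter on low counts. In this leukemia line HOXA2 to HOXA7 were each lower after Menin inhibition, whereas HOTAIRM1 was not, and it was higher when the immunoproteasome was inhibited as well. Such calls were common: of all 14683 tested genes, 29.3% were called lower after Menin inhibition alone (edgeR adjusted p under 0.05). With both inhibitors, 31.7% were called higher than in the diluent control and 23.6% higher than with Menin inhibition alone.

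RNA was sequenced from MOLM-13, an established acute myeloid leukemia line that carries the KMT2A::MLLT3 fusion. Cells received DMSO as the diluent (4 libraries), 1 µM MI-503 (4 libraries) or 1 µM MI-503 with 100 nM PR-957, also called ONX-0914 (3 libraries, replicates 1, 2 and 4), each for 72 h. MI-503 blocks the binding of Menin to KMT2A, and PR-957 inhibits PSMB8, a catalytic subunit of the immunoproteasome. The last group is called the combination, and PR-957 was seen only on top of MI-503. The model is 1 cell line grown in culture.

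HOX genes encode transcription factors that set position along the body axis, and their order on the chromosome follows the order in which they act from head to tail. In blood, HOXA genes are active in stem and progenitor cells and are switched off as myeloid cells mature, and KMT2A fusion proteins with Menin keep them on in leukemia. HOTAIRM1 is a long noncoding RNA of myeloid cells, first described as an RNA that increases with granulocytic maturation and with retinoic acid.

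On chromosome 7 (hg38) the 6 HOXA genes are all read from the minus strand and HOTAIRM1 from the plus strand. HOTAIRM1 spans chr7:27096094-27100258 in 3 exon blocks. HOXA2 (chr7:27100354-27102683) begins 6.589 kb from the HOTAIRM1 start. HOXA4 (chr7:27128525-27130757), HOXA5 (chr7:27141052-27143681), HOXA6 (chr7:27145396-27147774) and HOXA7 (chr7:27153716-27156675) follow, each as 2 exon blocks. HOXA3 is annotated with several starts over chr7:27106190-27153238, so its introns enclose HOXA4, HOXA5 and HOXA6. Reads were counted without strand, and fragments that touched exons of more than one gene were left out. HOXA2, HOXA5 and HOTAIRM1 share no exon base with another gene, while the antisense genes HOXA-AS2 and HOXA-AS3 cover 12.7% of the exon bases of HOXA3, 14.0% of HOXA4, 10.6% of HOXA6 and 74.8% of HOXA7. Counts of HOXA7 therefore came from the 509 bases of its exons that no other gene covers, and unspliced antisense RNA that falls only on a HOXA exon can have been counted to the HOXA gene.

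The promoters of the 4 HOXA genes with a single start in the RefSeq promoter table (GRCh38.p14) are shown because these genes were each called lower under MI-503 and their start regions differ in CpG content. KMT2A holds a CXXC domain, which binds unmethylated CpG. Sequence is given from 250 bases before the start, 5′ to 3′ on the minus strand, with CG dinucleotides in capitals, and bases annotated as untranslated exon are left out at the end nearest the start. The windows shown are chr7:27102684-27102933 for HOXA2, chr7:27130781-27131007 for HOXA4, chr7:27147775-27148024 for HOXA6 and chr7:27156755-27156925 for HOXA7.
HOXA2: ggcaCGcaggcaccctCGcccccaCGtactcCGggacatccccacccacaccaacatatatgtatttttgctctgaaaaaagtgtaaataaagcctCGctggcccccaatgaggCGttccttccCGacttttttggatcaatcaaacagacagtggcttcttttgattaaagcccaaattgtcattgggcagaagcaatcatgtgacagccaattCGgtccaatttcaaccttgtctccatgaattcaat
HOXA4: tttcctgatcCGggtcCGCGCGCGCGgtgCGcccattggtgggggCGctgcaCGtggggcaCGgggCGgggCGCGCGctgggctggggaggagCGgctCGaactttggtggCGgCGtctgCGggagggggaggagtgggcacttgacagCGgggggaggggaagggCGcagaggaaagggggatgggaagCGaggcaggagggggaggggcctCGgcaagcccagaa
HOXA6: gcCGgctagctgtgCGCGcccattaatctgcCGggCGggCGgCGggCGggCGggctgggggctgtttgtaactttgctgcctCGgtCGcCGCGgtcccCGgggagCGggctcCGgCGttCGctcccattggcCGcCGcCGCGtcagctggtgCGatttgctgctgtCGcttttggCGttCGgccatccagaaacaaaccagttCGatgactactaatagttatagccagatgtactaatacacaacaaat
HOXA7: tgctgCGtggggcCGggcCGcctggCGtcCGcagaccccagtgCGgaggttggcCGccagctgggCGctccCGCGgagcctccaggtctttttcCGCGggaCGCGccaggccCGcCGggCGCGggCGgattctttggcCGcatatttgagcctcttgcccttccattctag

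Over the whole 250 bases, the HOXA2 window held 8 CG dinucleotides, and 43.7% of the 35116 promoters in the table held fewer. HOXA4 held 26, HOXA6 held 27 and HOXA7 held 28 of them, with 80.4%, 82.3% and 84.1% of promoters below these counts. The 7 windows of HOXA3 ranged from 0 to 26. CCAAT, searched on both strands like the motifs that follow, occurred 4 times in HOXA2 and once each in HOXA4, HOXA6 and HOXA7, and 32.0% of all promoters held it. TGACAG, the core bound by MEIS proteins, occurred in HOXA2 and HOXA4 (4577 of all promoters). TGATNNAT, a site of PBX with HOX proteins, occurred in HOXA2 (6.47% of all promoters). AGGTCA, the core element of retinoic acid receptor sites, occurred in none of the 11 windows (12.1% of all promoters). These matches describe letters in the windows and were not tested against the changes in RNA.

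The libraries held 18891243 to 41153974 counted fragments, and levels are given as CPM, the usual count scale relative to the library total, here after TMM scaling. The lowest counts were those of HOXA2 (16 to 43) and HOTAIRM1 (30 to 187), and the widest exact Poisson 95% interval relative to its value was that of HOXA2 in combination replicate 2, from 0.459 to 1.30 CPM around 0.803 CPM, and equally in replicate 4. Such intervals cover counting error only. The combination replicate 1, the deepest library, stood apart from replicates 2 and 4: its HOXA4 level was 2.15 times and its HOXA3 level 1.88 times their mean, against 0.987 times for HOXA7. Fits of the members in the combination are therefore also given without it. Ratios, gene lists and most genes other than the members are given only with it. The myeloid genes PTPRC, CD33, MPO, SPI1 and CEBPA were well detected, ANPEP had 57 counts over the 11 libraries, and T cell and erythroid markers summed to at most 0.301 CPM. Of the B cell markers, MS4A1 had no count and PAX5 reached 22.5 to 48.6 CPM. Of the epithelial and stromal markers, PECAM1 (46.5 to 183 CPM), KRT18 (18.6 to 35.3 CPM) and KRT8 (5.88 to 10.9 CPM) were detected. EPCAM, COL1A1 and COL1A2 reached at most 0.992 CPM. The labels do not state that replicates were separate cultures, so p-values measure the spread between these libraries, which may be technical.

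Levels between genes were compared as CPM per kilobase of countable exon. In DMSO, HOXA7 (9.19 ± 0.818, SD, n = 4), HOXA5 (8.16 ± 0.296) and HOXA6 (7.46 ± 1.63) were the most abundant members per kilobase. HOXA3 (2.65 ± 0.12), HOXA4 (2.51 ± 0.412) and HOTAIRM1 (1.88 ± 0.438) formed a middle group, and HOXA2 was lowest at 1.04 ± 0.192. Neighbors within the upper and the middle group overlapped between libraries, whereas the middle group lay below the upper group and HOXA2 below HOTAIRM1 in every DMSO library. The place of HOXA7 rests on its short countable stretch, since over all its exon bases its level was 2.32 CPM per kilobase. That of HOXA3 rests on a long one, since its 9 exon blocks, annotated with several starts, held 7043 countable bases. Without division by length HOXA3 had the highest DMSO mean, 18.7 CPM, beside 13.6 CPM for HOXA5.

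**Figure D1:**
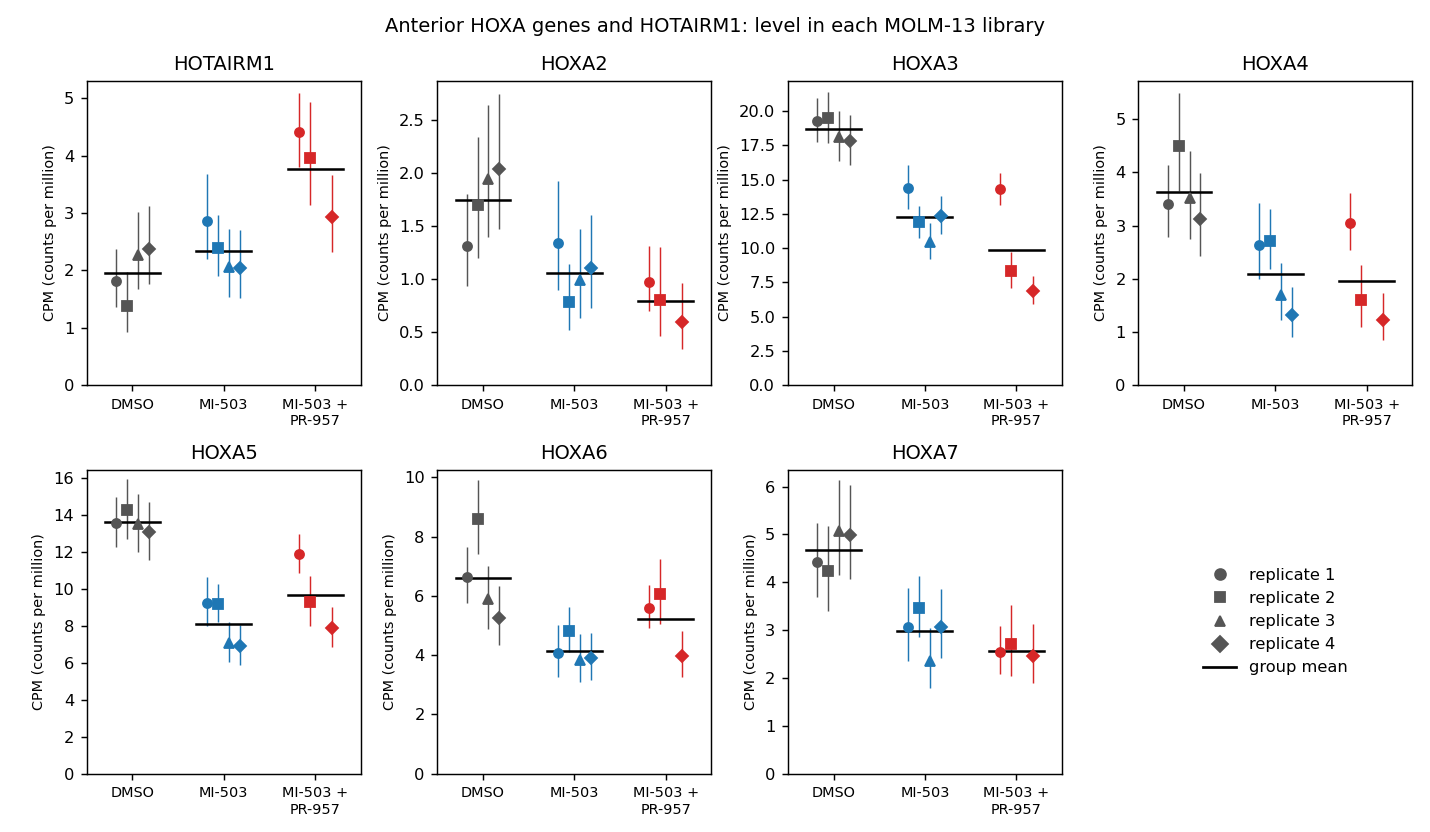
CPM of each member in each library (y axis, linear from 0) by group, with marker shape for the replicate number, vertical bars for the exact Poisson 95% interval of a single library and a black line for the group mean. HOXA2 to HOXA7 sit lower in MI-503 than in DMSO, and HOTAIRM1 is highest in the 3 combination libraries, between 2.94 and 4.41 CPM.

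The first comparison asked how Menin inhibition alone affected these genes. MI-503 lowered all 6 HOXA members to between 57.3% (HOXA4) and 65.7% (HOXA3) of their mean DMSO level, with log2 fold changes from -0.78 to -0.61 and a median of -0.70. HOTAIRM1 was at 119% of its DMSO mean and was not called. Thus 6 of 7 genes passed the test as lower and 0 as higher, where 29.3% of the 14683 tested genes were called lower and 22% higher (edgeR adjusted p under 0.05). The median of all tested genes was -0.03.

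HOXA2 patterns the hindbrain and the second pharyngeal arch in the embryo. It had 1.32, 1.70, 1.94 and 2.04 CPM in DMSO replicates 1 to 4 and 1.34, 0.785, 0.991 and 1.11 CPM with MI-503. The groups overlapped, because MI-503 replicate 1 reached just above DMSO replicate 1. It fell by 0.74 on the log2 scale (SE 0.22, edgeR adjusted p = 0.00875).

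HOXA3, needed for the thymus and parathyroid, had 19.3, 19.5, 18.1 and 17.8 CPM in DMSO and 14.4, 11.9, 10.4 and 12.4 CPM with MI-503. The groups were separate, and the log2 fold change was -0.61 (SE 0.16, edgeR adjusted p = 0.00351). HOXA4, a homeobox factor of the neighboring paralog group, had 3.41, 4.50, 3.51 and 3.13 CPM in DMSO and 2.64, 2.70, 1.69 and 1.31 CPM with MI-503. Its groups were separate as well, but its MI-503 libraries differed by more than those of the other HOXA members relative to their mean. The log2 fold change was -0.78 (SE 0.25, edgeR adjusted p = 0.0157), and HOXA4 was not called without DMSO replicate 2 (adjusted p = 0.0524), MI-503 replicate 3 (0.0507) or MI-503 replicate 4 (0.0563).

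HOXA5, which acts in lung development and in myeloid progenitors, had 13.6, 14.3, 13.5 and 13.1 CPM in DMSO and 9.26, 9.18, 7.06 and 6.92 CPM with MI-503. Every MI-503 library lay well below every DMSO library, and the fitted change was -0.75 on the log2 scale (SE 0.12, edgeR adjusted p = 7.33e-05). HOXA6 had 6.65, 8.59, 5.88 and 5.27 CPM in DMSO and 4.07, 4.82, 3.84 and 3.89 CPM with MI-503. DMSO replicate 2 was the high library of its group, and the groups were separate (log2 fold change -0.66, SE 0.16, edgeR adjusted p = 0.00203). HOXA7, with HOXA9 a classical target of KMT2A fusions, had 4.42, 4.23, 5.08 and 4.98 CPM in DMSO and 3.06, 3.46, 2.35 and 3.07 CPM with MI-503. It was lower in every treated library, at -0.63 on the log2 scale (SE 0.13, edgeR adjusted p = 5.6e-04). In all, 5 of the 7 members had MI-503 libraries wholly below the DMSO libraries, as did 29.1% of the tested genes, and 0 had them wholly above (21.2% of the tested genes).

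HOTAIRM1 had 1.82, 1.38, 2.28 and 2.37 CPM in DMSO and 2.87, 2.38, 2.06 and 2.05 CPM with MI-503. The groups overlapped, and the fitted change of 0.26 on the log2 scale (SE 0.19, 95% interval -0.15 to 0.67, edgeR adjusted p = 0.282) left room for no change or for a modest increase. Summed over HOXA2 to HOXA7, the level was 46.3 to 52.8 CPM in DMSO and 26.4 to 34.8 CPM with MI-503. In bulk RNA, fewer cells that express a gene and less RNA per cell cannot be told apart.

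**Figure D2:**
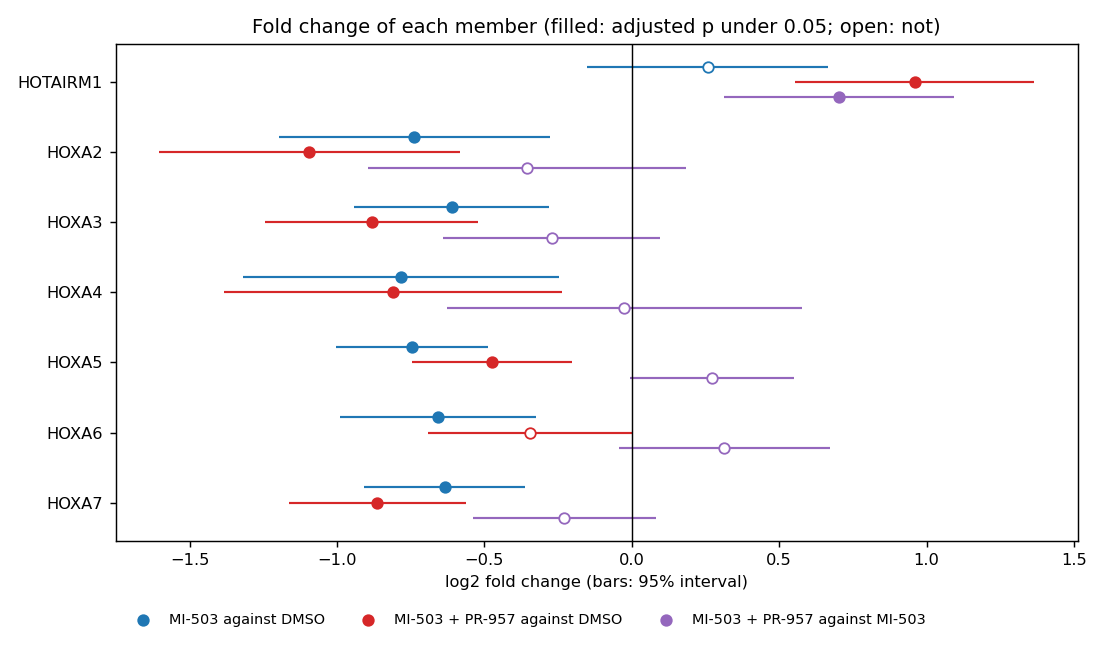
Log2 fold change of each member (x axis) in the 3 comparisons, with bars for the 95% interval of the edgeR fit, filled points for an adjusted p under 0.05 and open points otherwise. The HOXA genes lie between -0.78 and -0.61 under MI-503, and HOTAIRM1 is the only member called higher, in both comparisons of the combination.

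The second comparison set the combination against the same DMSO libraries, so both comparisons share their controls. Of the 7 members, 5 were lower (HOXA2, HOXA3, HOXA4, HOXA5 and HOXA7), 1 was higher (HOTAIRM1) and HOXA6 was not called, where 32.8% of tested genes were called lower and 31.7% higher. The HOXA genes ranged from -1.09 to -0.34 on the log2 scale with a median of -0.84, and the median of all tested genes was 0.01. The combination libraries lay wholly below DMSO for 5 members (31.2% of tested genes) and wholly above for 1 member (29.3%).

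HOTAIRM1 reached 4.41, 3.96 and 2.94 CPM in combination replicates 1, 2 and 4, which was above every DMSO and every MI-503 library. Its mean was 192% of the DMSO mean, and the fit gave 0.96 on the log2 scale (SE 0.19, edgeR adjusted p = 2.98e-04), and 0.82 without combination replicate 1 (adjusted p = 0.00128).

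HOXA2 had 0.968, 0.803 and 0.595 CPM in the combination, all below DMSO, and the fitted change of -1.09 on the log2 scale (SE 0.24, edgeR adjusted p = 7.14e-04) became -1.30 once combination replicate 1 was left out (adjusted p = 4.69e-04). HOXA3 had 14.3, 8.33 and 6.88 CPM, again below DMSO, with replicate 1 far above replicates 2 and 4. Its log2 fold change was -0.88 (SE 0.17, edgeR adjusted p = 2.34e-04), and -1.29 without that library (adjusted p = 4.79e-10). HOXA4 followed the same order of libraries at 3.05, 1.61 and 1.23 CPM, and replicate 1 came close to the lowest DMSO value. The fitted change of -0.81 (log2, SE 0.27, edgeR adjusted p = 0.0149) became -1.36 without replicate 1, and the call was lost without replicate 2 (adjusted p = 0.0532) or replicate 4 (0.0665).

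HOXA5 had 11.9, 9.28 and 7.89 CPM and HOXA7 had 2.55, 2.71 and 2.46 CPM in the combination, both below every DMSO library. The HOXA7 libraries lay close together, without the high replicate 1 seen for HOXA3 and HOXA4. The log2 fold change was -0.47 for HOXA5 (SE 0.13, edgeR adjusted p = 0.0039) and -0.86 for HOXA7 (SE 0.14, edgeR adjusted p = 4.36e-05). Without combination replicate 1 it was -0.66 for HOXA5 and -0.84 for HOXA7, both still called. HOXA6 had 5.60, 6.07 and 3.98 CPM, of which replicates 1 and 2 overlapped with DMSO. Its log2 fold change of -0.34 (95% interval -0.69 to 0.00, edgeR adjusted p = 0.0757) missed the threshold, and it passed without DMSO replicate 4 (-0.44, adjusted p = 0.0336) or without combination replicate 2 (-0.44, adjusted p = 0.0443). It also passed with no filter on low counts (-0.32, adjusted p = 0.0381) and with the replicate number as a block (-0.37, adjusted p = 0.0115). Without combination replicate 1 it stood at -0.41 (adjusted p = 0.05001, just above the threshold).

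The third comparison, the combination against MI-503, asked what PR-957 added. HOTAIRM1 was called higher and none of HOXA2 to HOXA7 was called in either direction. Thus 1 of 7 members was higher and 0 lower, where 23.6% of tested genes were called higher and 23.8% lower. HOTAIRM1 also was the 1 member whose libraries did not overlap (23.8% of tested genes were separate in that direction and 23.7% in the other). Its log2 fold change was 0.70 (SE 0.18, 95% interval 0.31 to 1.09, edgeR adjusted p = 0.00468), and 0.52 without combination replicate 1 (adjusted p = 0.0333).

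HOXA2 to HOXA7 had a median log2 fold change of -0.13 in this comparison, from -0.36 to 0.31. HOXA2 was at -0.36 (95% interval -0.90 to 0.18), HOXA3 at -0.27 (-0.64 to 0.10), HOXA4 at -0.03 (-0.63 to 0.58) and HOXA7 at -0.23 (-0.54 to 0.08). On the other side of 0 were HOXA5 at 0.27 (-0.01 to 0.55) and HOXA6 at 0.31 (-0.04 to 0.67). Without combination replicate 1, HOXA3 was called lower at -0.72 (edgeR adjusted p = 1.35e-05) and HOXA4 stood at -0.63 (adjusted p = 0.0629), HOXA2 at -0.61 (0.113) and HOXA7 at -0.26 (0.240). In the same fit HOXA5 was at 0.04 (adjusted p = 0.811) and HOXA6 at 0.20 (0.380). Without combination replicate 4, HOXA5 (0.37, adjusted p = 0.0225) and HOXA6 (0.43, adjusted p = 0.0416) were called higher.

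Whether HOTAIRM1 and the HOXA genes responded differently was tested with their log2 count ratio within each library, in which library size cancels. With MI-503 the ratio of HOTAIRM1 to each of the 6 HOXA genes was higher than in DMSO, by 0.88 (HOXA3) to 1.12 (HOXA4). All 6 ratios were separate between the groups, and each reached p = 0.0286, the smallest p that the exact permutation test allows here (two-sided, adjusted p = 0.0343 over 18 tests). The 6 ratios share the same HOTAIRM1 counts, so the tests are not independent of each other. A ratio alone at the smallest p could not have passed the adjustment over 18 tests. The calls therefore rest on many of these linked tests reaching it together. How often ratios of other gene pairs separate in this way was not computed. Leaving out MI-503 replicate 1 or 3 left 3 of the 6 called.

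For HOXA2 the ratio went from 0.15 ± 0.32 (SD, n = 4) in DMSO to 1.15 ± 0.31 (n = 4) with MI-503 and 2.24 ± 0.05 (n = 3) in the combination. For HOXA5 the ratio was -2.81 ± 0.40 in DMSO, -1.78 ± 0.11 with MI-503 and -1.36 ± 0.12 in the combination. The combination exceeded DMSO by 1.28 to 2.09 and was called for 5 of 6 pairs, the exception being HOXA6 (exact permutation p = 0.0571, adjusted p = 0.0643). The libraries of these groups were separate for all 6 pairs, that with HOXA6 included. Against MI-503 the combination was called for 4 of 6 pairs, by 0.43 (HOXA5) to 1.09 (HOXA2), while the pairs with HOXA4 and HOXA6 overlapped (exact permutation p = 0.0857 each). HOTAIRM1 thus made up 2.54% to 4.87% of the summed CPM of the 7 members in DMSO, 6.67% to 7.63% with MI-503 and 10.3% to 12.1% in the combination.

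**Figure D3:**
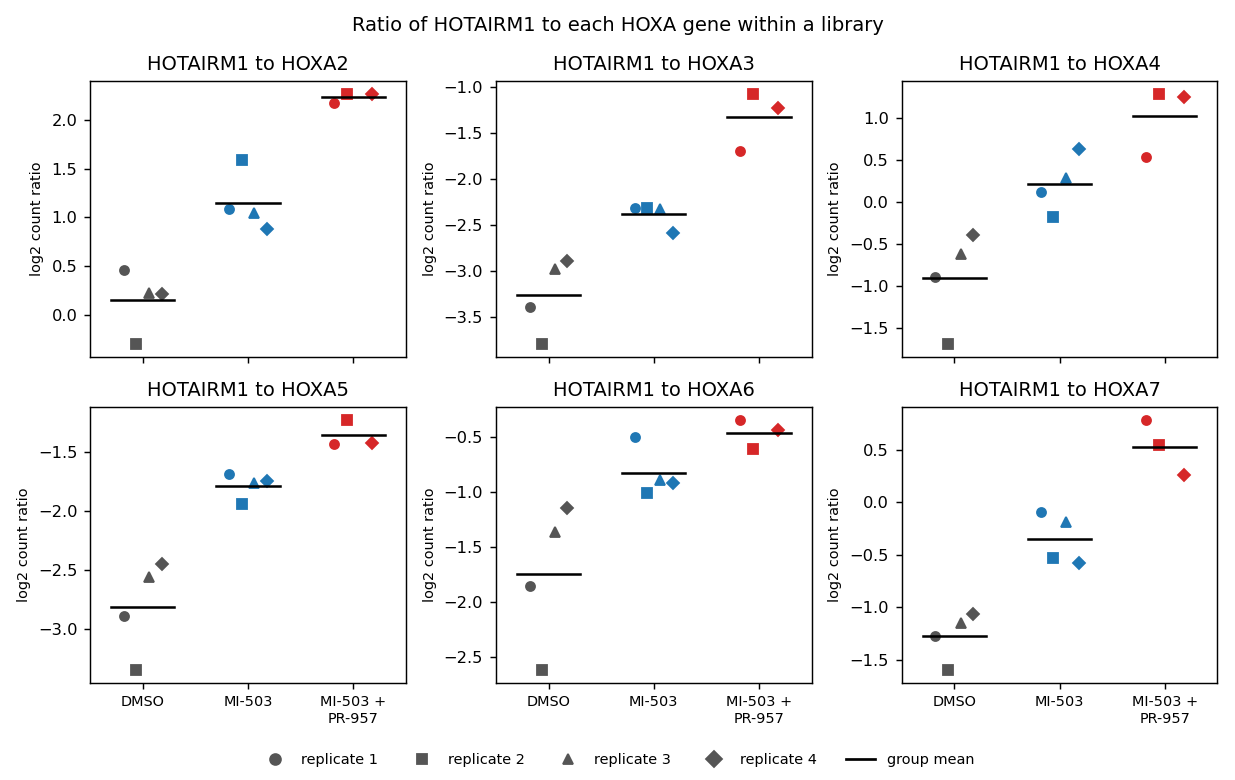
Log2 count ratio of HOTAIRM1 to each HOXA gene within a library (y axis, a separate range in each panel) by group, with marker shape for the replicate number and a black line for the group mean. In each panel the 4 MI-503 libraries lie above the 4 DMSO libraries, and the combination has the highest mean.

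Neighboring HOXA genes were compared in the same way, as HOXA2 to HOXA3 and onward to HOXA6 to HOXA7. Of 15 exact permutation tests 0 were called and 0 had an unadjusted p under 0.05, with adjusted p from 0.571 to 0.971. The ratio with the widest shift was that of HOXA6 to HOXA7, which was 0.47 ± 0.42 in DMSO, 0.48 ± 0.16 with MI-503 and 0.99 ± 0.26 in the combination. Its difference between the combination and DMSO was 0.52 (exact permutation p = 0.114), and between the combination and MI-503 0.51 (p = 0.0571, adjusted p = 0.571). The smallest p that the exact permutation test allows here is 0.0286. After adjustment over 15 tests, 1 separate pair alone could therefore not have been called. The absence of a call does not show that neighboring genes moved alike.

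**Figure D4:**
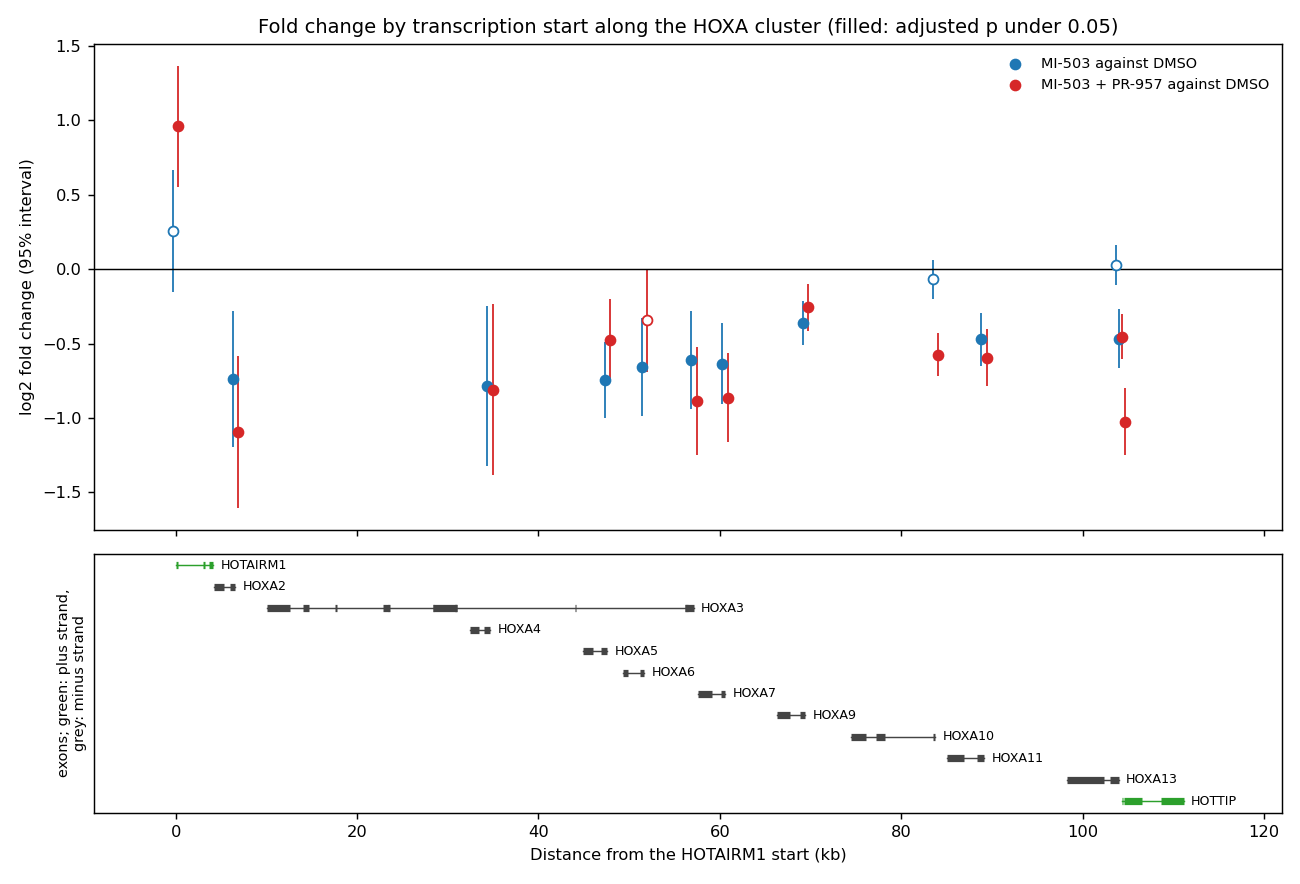
Log2 fold change against DMSO with its 95% interval (upper panel) by the position of each gene's start, in kb from the HOTAIRM1 start, with a small sideways offset between the 2 treatments, and the exons of each gene to scale below. HOTAIRM1 at 0 kb lies above 0 in the combination, and the genes shown from HOXA2 onward lie below 0 in it.

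Among the posterior genes of the cluster, MI-503 lowered HOXA9 (-0.36) and HOXA11 (-0.47), whereas HOXA10 (-0.07, edgeR adjusted p = 0.392) and HOXA13 (0.03, adjusted p = 0.748) were not called. The combination lowered all 4 against DMSO, with a median of -0.51, where 32.8% of tested genes were lower. Against MI-503 it lowered HOXA10 (-0.51, edgeR adjusted p = 1.43e-05) and HOXA13 (-0.48, adjusted p = 3.39e-05), where 23.8% of tested genes were lower. HOXA9 (0.10) and HOXA11 (-0.12) were not called, but HOXA11 was lower without combination replicate 1 (-0.33, adjusted p = 2.03e-04). HOTTIP, the noncoding RNA at the posterior end, fell by 0.47 with MI-503 and by 1.02 in the combination on the log2 scale, where HOTAIRM1 at the anterior end stood at 0.26 and 0.96. HOTTIP was also lower in the combination than with MI-503 (-0.56, edgeR adjusted p = 4.06e-04). HOXA-AS2, antisense to HOXA3 and HOXA4, stood at -0.77 with MI-503 (edgeR adjusted p = 0.0301) and at -0.80 in the combination (adjusted p = 0.0273, and 0.0588 without combination replicate 1). HOXA-AS3, antisense to HOXA3, HOXA6 and HOXA7, was not called in any comparison (-0.53, -0.46 and 0.07). Of the antisense genes further along, HOXA10-AS (-0.68 and -0.98) and HOXA11-AS (-0.20 and -0.51) were lower with MI-503 and in the combination than in DMSO. In the combination against MI-503, HOXA11-AS was called lower (-0.31, edgeR adjusted p = 0.00405). HOXA10-AS was not (-0.30, adjusted p = 0.0552, and 0.0238 without combination replicate 1). The readthrough gene HOXA10-HOXA9 was not called (-0.19 and -0.38), but was lower in the combination without its replicate 1 (-1.34, adjusted p = 0.00594), and EVX1 had too few counts to be tested. Of the genes flanking the cluster, SKAP2 (0.21 and 0.32), SNX10 (0.23 and 0.28) and JAZF1 (0.58 and 0.99) were higher with MI-503 and in the combination than in DMSO, HIBADH was lower (-0.30 and -0.59), and TAX1BP1 was called higher in the combination (0.48) and not with MI-503 (0.02). Of the HOXB, HOXC and HOXD genes, 6 of 28 could be tested. With MI-503, 3 were higher and 0 lower (HOXC10 0.71, HOXC5 0.62, HOXC6 0.39), where 22% of all tested genes were higher and 29.3% lower. In the combination against DMSO, 2 were lower and 0 higher (HOXC4 -0.78, HOXC8 -0.50), where 32.8% were lower and 31.7% higher. Against MI-503, 3 were lower and 0 higher (HOXC10 -0.79, HOXC4 -0.74, HOXC5 -1.09), where 23.8% were lower and 23.6% higher.

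The TALE proteins bind DNA together with HOX proteins. The counts for this and the following lists stand beside 29.3% lower and 22% higher among all tested genes with MI-503, and 32.8% lower and 31.7% higher in the combination against DMSO. Of 5 tested TALE genes, 4 were lower and 1 higher in each comparison with DMSO, and the median went from -0.44 with MI-503 to -0.89 in the combination. PBX3 fell by 2.02 and MEIS1 by 1.37 on the log2 scale with MI-503, beside -0.78 to -0.61 for the anterior HOXA genes. Of 15 genes of the Menin and KMT2A complexes, 7 were lower and 0 higher with MI-503, led by AFF1 (-0.61), and 9 were lower and 2 higher in the combination. Of 14 tested Polycomb genes, which encode repressors of HOX genes, 7 were lower and 5 higher with MI-503, with EZH2 at -0.52, and 8 were lower and 4 higher in the combination, with EZH1 at 1.00.

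For the retinoic acid pathway, which induces HOTAIRM1 in other settings, 2 of 10 tested genes were lower and 3 higher with MI-503, and 2 were lower and 2 higher in the combination against DMSO. ALDH1A3, which makes retinoic acid, fell by 2.78 and by 3.27 on the log2 scale. CYP26B1, which degrades retinoic acid, was higher with MI-503 (0.99). In the combination CYP26B1 was lower than with MI-503 (-1.16, edgeR adjusted p = 7.01e-05), at a mean of 5.55 CPM beside 6.03 CPM in DMSO. The 2 genes called higher in the combination against DMSO were RARA (0.39, edgeR adjusted p = 2.14e-05) and TGM2 (1.93, adjusted p = 0.00124). The mean of TGM2 in the combination was only 0.452 CPM. Of 9 tested genes of myeloid maturation, 8 were higher and 0 lower in both comparisons with DMSO, with CSF1R at 2.43 and 3.10 and ITGAM at 1.27 and 1.59. Their summed level was 278 to 329 CPM in DMSO, 772 to 804 CPM with MI-503 and 1047 to 3174 CPM in the combination. Much of this sum was LYZ, at 376 CPM with MI-503 and 1641 ± 968 CPM (SD) in the combination. The part of maturation in the levels of HOTAIRM1 and the HOXA genes was not tested.

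As a description over the 11 libraries, which share 3 treatment groups, log2 CPM of HOTAIRM1 was most like that of PGGT1B (Pearson r = 0.976), ZC3H12A (0.947) and CNEP1R1 (0.942) among the 10041 other genes that averaged 5 CPM or more. HOXA2 was most like PUS7L (0.953), ZADH2 (0.943) and FBXW7 (0.940). HOXA3 was most like KRT18 (0.982), TTC28 (0.979) and DNMT3B (0.975), and HOXA4 like CSPG4 (0.946), COL27A1 (0.946) and TRMT13 (0.939). For HOXA5 the nearest genes were LPGAT1 (0.975), CCDC117 (0.968) and NEMP1 (0.965), for HOXA6 EPB41L3 (0.969), PPME1 (0.945) and TOGARAM1 (0.895), and for HOXA7 TYSND1 (0.969), GOLGA8N (0.965) and CCL28 (0.965). Ranked by Spearman rho instead, 0 of the 3 genes were shared for HOTAIRM1, HOXA2 and HOXA4 and 1 of 3 for HOXA6 and HOXA7, so these names depend on the measure. HOTAIRM1, HOXA2, HOXA4 and HOXA7 averaged under 5 CPM and could not be listed as neighbors of another member.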

How the data were processed

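RNA of MOLM-13 cells was prepared with a TruSeq kit and sequenced as read pairs. The authors deposited unnormalized counts, 1 number of fragments for each gene and library. Per the submitters' processing notes and the file headers, the authors trimmed reads with Trimmomatic 0.39, aligned them to hg38 with STAR 2.7.10a and counted exons with featureCounts 2.0.1, without strand and without fragments that mapped to several places or overlapped several genes. Antisense and sense reads can therefore not be told apart, and genes with overlapping neighbors lose counts. The joined table and the single tables differed in 0 cells. Tables of differential expression from the authors, which hold log2 fold changes and p-values from DESeq2, were not used.

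The software was R 4.3.3, limma 3.58.1 and edgeR 4.0.16, with DESeq2 1.42.0 as an alternative, and Python 3.11.15 (numpy 2.4.6, pandas 2.3.3, scipy 1.17.1, matplotlib 3.10.9). Of 38557 genes, 26817 had a count and 14683 passed edgeR's expression filter (at least 10 counts, a total of 15 and a large-group setting of 10). The 11 libraries went into 1 quasi-likelihood fit with group means and TMM factors (0.956 to 1.056), and p-values were adjusted by Benjamini-Hochberg over all tested genes, with calls under 0.05. Pairs of members were compared by exact permutation tests of log2 ratios (prior count 0.5), adjusted within each family. Tests were tried on simulated data. Named genes are the members, the genes of the cluster and its neighbors on the lists (except a result that is not reported here), from every other list up to 3 genes, by smallest adjusted p in a comparison, and the 3 genes most like each member. The members, lists and tests were chosen with earlier results of these data known. Promoter sequences are from RefSeq (GRCh38.p14), where 5 of the 7 members had an entry. Alternatives were other scaling factors and filters, DESeq2, the compared groups alone, a replicate block, a stricter threshold and leaving out each library.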

Additional observations from a re-analysis of the deposited data

How the results depend on the processing

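Under the alternatives, HOTAIRM1, HOXA2, HOXA3, HOXA5, HOXA6 and HOXA7 kept their direction and side of the threshold for MI-503 against DMSO in all settings run, and HOXA4 lost its call in 4 of 18. With a filter at 5 CPM fewer members could be tested, and called members fell to 3 lower for MI-503, 2 lower and 0 higher for the combination against DMSO, and 0 higher against MI-503. With no filter, HOXA6 was also lower in the combination against DMSO, which made 6 members lower, and 1 member was lower (HOXA3) and 2 were higher (HOTAIRM1, HOXA5) in the combination against MI-503. Leaving out single libraries gave 0 to 1 lower and 1 to 3 higher members there, and 3 to 6 called HOTAIRM1 pairs for MI-503 against DMSO. HOXA4 in the combination against MI-503 ranged from -0.63 to 0.19 when libraries were left out. Uncalled ratio differences for MI-503 against DMSO changed sign for HOXA6 to HOXA7 (-0.12 to 0.19), HOXA2 to HOXA3 (-0.26 to 0.0077) and HOXA4 to HOXA5 (-0.17 to 0.042). Per kilobase of all exon bases, HOXA3 was at 2.31 and HOXA7 at 2.32 CPM in DMSO. The causes were not tested beyond the number of genes and libraries left. Ratios in the combination without a library have no test that could reach the threshold.

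Replicate numbers gave no clear pairing of the libraries. Over 10 pairs with the same number, deviations from group means correlated from -0.25 to 0.28, and 6 of these 10 were over 0.1. The 30 pairs with different numbers ranged from -0.31 to 0.32, and 4 of the 11 libraries correlated best with their own number. So few libraries per group cannot exclude pairing. With a replicate block, HOXA6 in the combination against DMSO passed the threshold (-0.37, edgeR adjusted p = 0.0115), and no other call of a member changed. HOXA2 and HOTAIRM1 are limited by depth, with 16 to 187 counts per library.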
